A study of Homo sapiens with 16 samples.

Results

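The human mitochondrial genome carries 37 genes, and these were the subject here: all genes that the deposited count table places on chromosome MT, 37 of 60671. They comprise 13 protein genes, 2 ribosomal RNA (rRNA) genes and 22 transfer RNA (tRNA) genes, of which 28 are annotated on the plus strand and 9, MT-ND6 and 8 tRNA genes, on the minus strand. The study sequenced RNA from HEK293, an established human embryonic kidney line, in 16 libraries: 8 groups with replicates numbered 1 and 2. One group was parental, with no plasmid named in its title. The empty vector group received pcDNA3.0 alone, and 6 groups received pcDNA3.0 carrying a transcript of LINC01016, a long non-coding RNA gene, under the names T1, T2, CU1, CU2, CU1ENC and CU1ENU. The labels give 5 µg of plasmid, a Lipofectamine reagent, 60 mm plates and RNA collection at 48 h, with RNA integrity numbers above 9. All groups share the cell line and medium, the plasmids were introduced by transient transfection, and the labels give no separate cultures or dates for the replicates. A p-value here thus reflects how far these 16 libraries scatter, and that scatter may be technical. The labels name dUTP strand-specific paired-end libraries made from total RNA and give no poly(A) selection or rRNA removal.

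Mitochondrial DNA is transcribed from both strands as long precursor RNAs that span many genes. The tRNAs lie between the other genes, and their excision releases most mRNAs and both rRNAs, several of which then gain a short poly(A) tail. The 13 proteins are core subunits of respiratory complexes I, III, IV and V, and the 2 rRNAs and 22 tRNAs serve the translation of those proteins inside the organelle.

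The following tRNA genes carry the results below. MT-TM, with 8 and 7 counts in the parental libraries, was higher in every transfected library, as were 16.8% of all genes tested. The next 6 were called lower in replicate 2, as were 17.9% of all genes tested, and MT-TS2 had the lowest level. Sequences are from GENCODE 29 transcripts on GRCh38, written 5′ to 3′ along each gene's own strand, with the anticodon in capitals. The positions and lengths of all 37 genes are the same in that release and in the count table.
MT-TM, MT:4402-4469, plus strand, methionine: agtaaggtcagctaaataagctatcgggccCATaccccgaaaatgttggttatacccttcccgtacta
MT-TS1, MT:7446-7514, minus strand, serine: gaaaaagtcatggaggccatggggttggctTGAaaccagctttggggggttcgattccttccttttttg
MT-TY, MT:5826-5891, minus strand, tyrosine: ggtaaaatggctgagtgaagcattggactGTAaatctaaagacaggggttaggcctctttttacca
MT-TA, MT:5587-5655, minus strand, alanine: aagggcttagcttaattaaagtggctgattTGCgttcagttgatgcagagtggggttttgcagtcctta
MT-TQ, MT:4329-4400, minus strand, glutamine: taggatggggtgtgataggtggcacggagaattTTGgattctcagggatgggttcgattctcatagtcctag
MT-TC, MT:5761-5826, minus strand, cysteine: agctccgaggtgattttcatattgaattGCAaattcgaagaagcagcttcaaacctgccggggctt
MT-TE, MT:14674-14742, minus strand, glutamate: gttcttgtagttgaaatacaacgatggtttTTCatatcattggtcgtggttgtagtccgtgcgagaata
MT-TS2, MT:12207-12265, plus strand, serine: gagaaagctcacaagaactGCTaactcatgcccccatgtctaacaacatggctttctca

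The 6 minus-strand tRNA genes printed above hold 24.2 to 36.1% G, against 19.1% in MT-TM and 15.3% in MT-TS2. The same strand bias marks the protein genes: the 12 on the plus strand hold 6.28 to 16.2% G, and MT-ND6 holds 35.6%. Protein genes also end in different ways, shown here by the last 30 bases with the final codon, or what is left of it, in capitals.
MT-CO1, MT:7416-7445, plus strand: ttcgaagaacccgtatacataaaatctAGA
MT-CO2, MT:8240-8269, plus strand: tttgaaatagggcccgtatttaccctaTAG
MT-CO3, MT:9961-9990, plus strand: tgtatgtctccatctattgatgagggtctT
MT-ND4, MT:12108-12137, plus strand: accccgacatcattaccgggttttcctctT
MT-ND6, MT:14149-14178, minus strand: attgtaattgagattgctcgggggaatAGG
Of the 13 protein genes, 6 have a length that is not a multiple of 3, as MT-CO3 and MT-ND4 do. The poly(A) tail completes the stop codon of such mRNAs.

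MT-ATP8 and MT-ATP6, both subunits of the ATP synthase, share 46 bases, printed in capitals at the end of MT-ATP8, which has 207 bases in all.
MT-ATP8, MT:8366-8572, plus strand: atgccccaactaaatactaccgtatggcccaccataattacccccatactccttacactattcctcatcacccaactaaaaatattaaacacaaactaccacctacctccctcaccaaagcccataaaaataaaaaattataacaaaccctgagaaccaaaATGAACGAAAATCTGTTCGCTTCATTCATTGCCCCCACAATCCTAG
MT-ND4L and MT-ND4 share 7 bases and MT-ATP6 and MT-CO3 share 1. The recorded counting command holds no option that lets a fragment count for several genes, so fragments over a shared stretch can be missing from both partners.

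The libraries held 15040770 to 17255935 counts, with 25529 to 27461 genes above 0 and scaling factors of 0.974 to 1.03. LINC01016 had at most 1 count in the 4 parental and empty vector libraries and 40405 to 192244 in the 12 isoform libraries. All 10 HEK293 markers had at least 10 counts in every library, and the 8 leukocyte and erythroid markers summed to 1.24 to 4.68 CPM, that is, counts scaled to a common library size. The 2 parental libraries stood apart from each other: replicate 1 had the highest mitochondrial share of the 16 libraries and replicate 2 the lowest. Counts of mitochondrial genes called against parental cells are therefore given with and without each of them, while the values of named nuclear genes come from the fit of all 16 libraries.

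Levels of the tRNA genes lay below those of the protein and rRNA genes, while the latter classes overlapped. In CPM per kilobase of gene, averaged over 16 libraries, the protein genes spanned 315 to 3370, the rRNA genes 405 to 1510 and the tRNA genes 0.201 to 125. The low-count filter, which asked for about 10 counts in at least 2 libraries, passed all 13 protein genes, both rRNA genes and 12 of 22 tRNA genes, so 27 of the 37 were tested. The filter used group sizes alone, so a gene could pass through the groups in which it was high, as MT-TM did.

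The 3 mitochondrially encoded subunits of cytochrome c oxidase, complex IV, led the order of level per length. MT-CO2 stood at 3370 ± 647 CPM per kilobase (SD, n = 16), MT-CO1 at 2680 ± 616 and MT-CO3 at 1620 ± 431. MT-CO2 lay above MT-CO1 and MT-CO1 above MT-CO3 in 16 of 16 libraries. MT-CO3, MT-ND3 at 1580 ± 268 and the large rRNA MT-RNR2 at 1510 ± 284 were not separated, since MT-CO3 exceeded MT-ND3 in 7 libraries and MT-ND3 exceeded MT-RNR2 in 11.

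The ATP synthase subunit MT-ATP6 followed at 1240 ± 243 CPM per kilobase. MT-ND4 and MT-ND4L, which are cotranscribed subunits of complex I, stood at 1080 ± 226 and 1060 ± 214, with MT-ND4 the higher in 10 of 16 libraries. Cytochrome b of complex III, MT-CYB, and the complex I subunits MT-ND2 and MT-ND1 formed the next set, at 625 ± 120, 625 ± 115 and 599 ± 113. These 3 neighbours changed order between libraries.

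MT-ND5 at 488 ± 98.8 CPM per kilobase and MT-ATP8 at 483 ± 106 came next, with MT-ND5 the higher in 11 libraries. The small rRNA MT-RNR1 stood at 405 ± 100 and MT-ND6 at 315 ± 92.3, the lowest protein gene and the only one on the minus strand. MT-RNR1 exceeded MT-ND6 in 14 of 16 libraries. In these counts MT-ATP8 was far below MT-ATP6, with which it shares 46 of its 207 bases. Fragments over the shared stretch can be missing from both genes, so this gap cannot be read as a difference in transcript level.

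The tRNA genes that could be measured differed by strand and by spacing. All 8 minus-strand tRNA genes passed the filter, against 4 of 14 on the plus strand: MT-TL1, MT-TM, MT-TW and MT-TT. The wider gap to an annotated gene on the same strand was 31 to 6634 bases for the 8 minus-strand genes. It was 0 to 324 bases for the 4 and 0 to 72 bases for the 10 plus-strand genes below the filter. The parts of strand and spacing were not told apart. The 4 highest by mean count were MT-TL1 at 142, MT-TS1 at 138, MT-TN at 72.1 and MT-TY at 63.3 counts per library. Per length they stood at 118 ± 22.5, 125 ± 33.5, 61.6 ± 16.4 and 59.7 ± 19.8 CPM per kilobase (SD, n = 16).

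The 10 tRNA genes below the filter had mean counts of 0.188 to 3.06. MT-TS2, serine, had 3 counts in all 16 libraries together and MT-TL2, leucine, had 6, with no count in 14 and 12 libraries. At so few counts no difference between groups was detectable for those 10. Lengths of 59 to 75 bases are short for a sequenced fragment, and most tRNA genes lie directly beside another gene. A precursor fragment that reaches into a neighbour on the same strand touches both genes. With no option to count it for several genes, it can be missing from the tRNA count. For instance, MT-TM ends directly before MT-ND2 and MT-TL1 lies directly after MT-RNR2. The counting did not separate mature tRNA from precursor fragments that touch the tRNA gene alone.

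**Figure D1:**
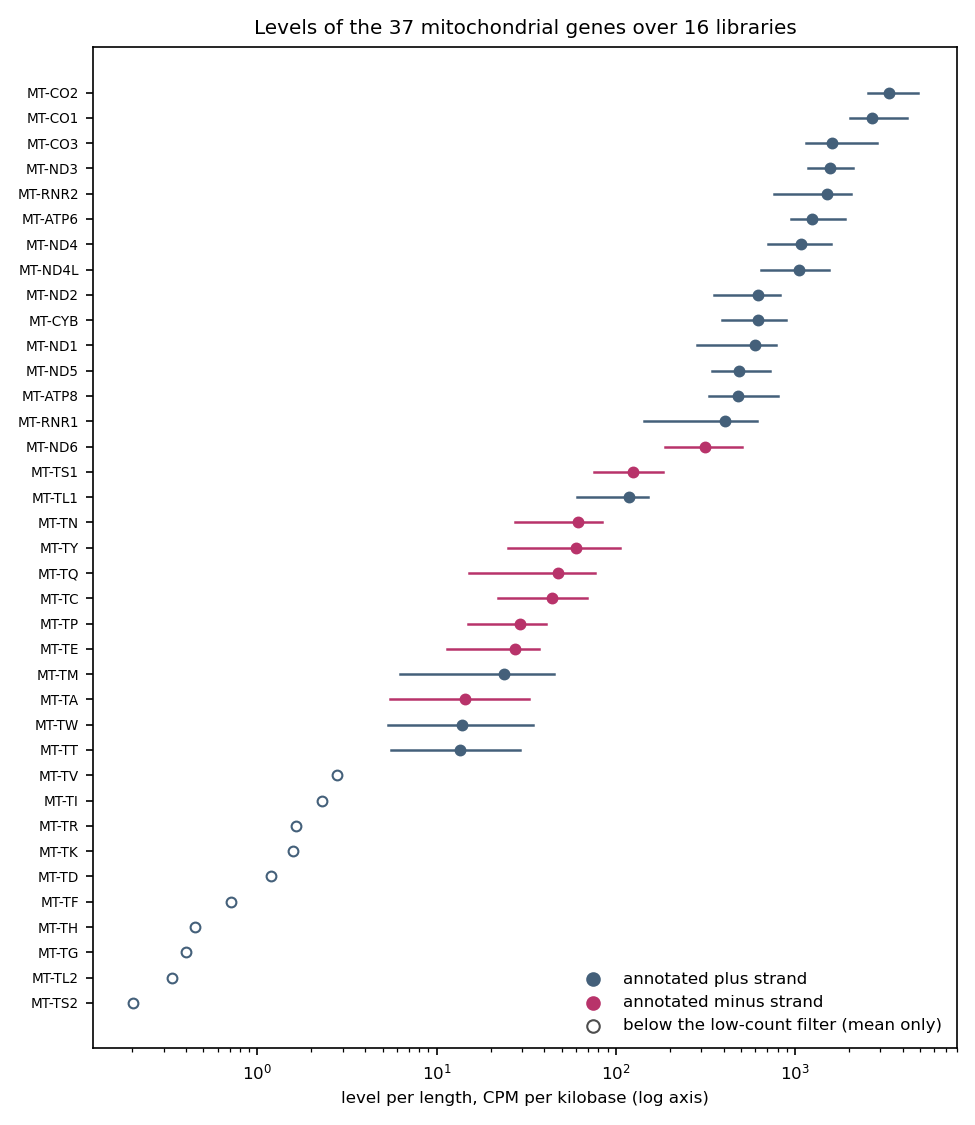
Mean level of each of the 37 genes over 16 libraries in CPM per kilobase (x axis, log scale), with lines from the lowest to the highest library for the 27 tested genes. Filled points are tested genes, open points are the 10 genes below the low-count filter (mean only), and colours give the annotated strand. MT-CO2 is highest at 3370 and MT-TS2 lowest at 0.201.

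Mitochondrial genes took 1.147 to 2.419% of the counts of a library, a 2.11-fold range, and the share tracked the replicate number more than the group. In parental cells the share was 2.419% in replicate 1 and 1.147% in replicate 2. The empty vector libraries held 2.279 and 1.341%. The 6 isoform groups held 1.619 to 1.956% in replicate 1 and 1.319 to 1.752% in replicate 2. Replicate 2 was the lower in 8 of 8 groups, by 0.482 percentage points on average (SD 0.409 over 8 groups), and the gap was widest in the parental group. These sums over the members are given as values, without a test.

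Each class followed this pattern in most groups. The protein gene share was lower in replicate 2 in 8 of 8 groups, the rRNA share in 7 of 8 (CU1ENC went from 0.3037 to 0.3169%) and the tRNA share in 7 of 8 (CU2 went from 0.004213 to 0.004647%). Protein genes made up 1.011 to 2.113% of a library, rRNA genes 0.134 to 0.3847% and tRNA genes 0.002679 to 0.005524%. The parental mean was 1.78% ± 0.899 (SD, n = 2) and the empty vector mean 1.81% ± 0.663 (n = 2). The 14 transfected libraries ran from 1.319 to 2.279%, inside the parental pair. In bulk RNA, fewer mitochondrial transcripts per cell and more of other RNA cannot be told apart.

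**Figure D2:**
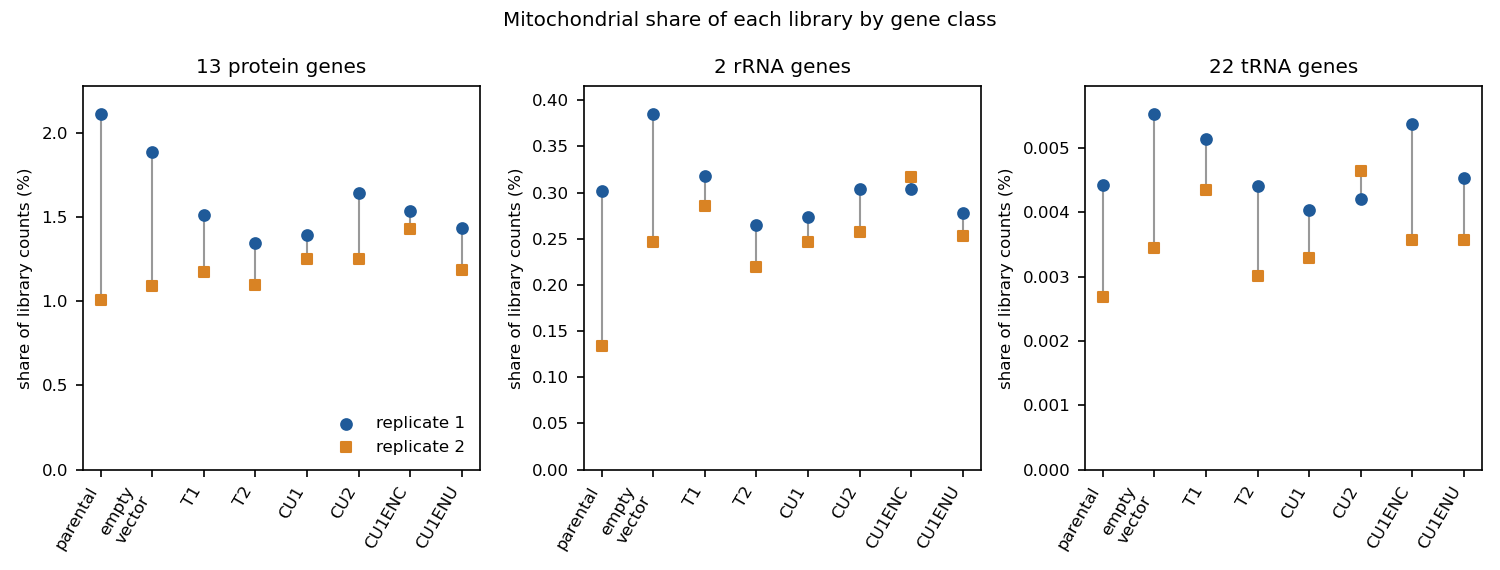
Share of all library counts (y axes, percent, each from 0) on the protein, rRNA and tRNA genes of the mitochondrial genome, for the 8 groups (x axis). Circles are replicate 1, squares replicate 2, and a line joins the 2 libraries of a group. Replicate 2 lies below replicate 1 in 8, 7 and 7 of 8 groups.

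The total mitochondrial share did not separate parental from transfected libraries, while the make-up of the mitochondrial counts did so for some genes. Of the 15 protein and rRNA genes, 4 held a larger part in all transfected libraries than in both parental ones. Another 3 held a smaller part, and 8 overlapped. MT-RNR1 took 1.31 and 1.19% of mitochondrial counts in the 2 parental libraries and 1.97 to 3.15% in the 14 transfected ones, with a median of 2.43%. MT-RNR2 took 11.2 and 10.5% in parental cells and 13.6 to 16.3% after transfection. Both rRNA shares lay above both parental values in 14 of 14 transfected libraries. MT-RNR1 counts per MT-RNR2 count were 0.1172 and 0.114 in parental libraries and 0.145 to 0.1931 in transfected ones, so the 2 rRNAs did not change in step.

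MT-ND1 and MT-ND2, the complex I genes that follow the rRNA genes on the plus strand, were also a larger part of the transfected libraries. MT-ND1 held 2.88 and 2.39% in parental cells and 3.03 to 3.91% after transfection. MT-ND2 held 3.19 and 3.24%, then 3.79 to 4.23%. Lower parts were held by MT-CO1, with 27.4% in both parental libraries against 22.2 to 26.1%, by MT-CO3, with 9.35 and 9.16% against 6.53 to 7.87%, and by MT-ATP6, with 5.4 and 5.84% against 4.51 to 5.27%. The genes named here were picked from the 15 protein and rRNA genes after their values were seen, and a share within mitochondrial counts has no counterpart over all genes. These shares sum to 100%, so a larger part for one gene lowers the others, and they were compared as values only.

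**Figure D3:**
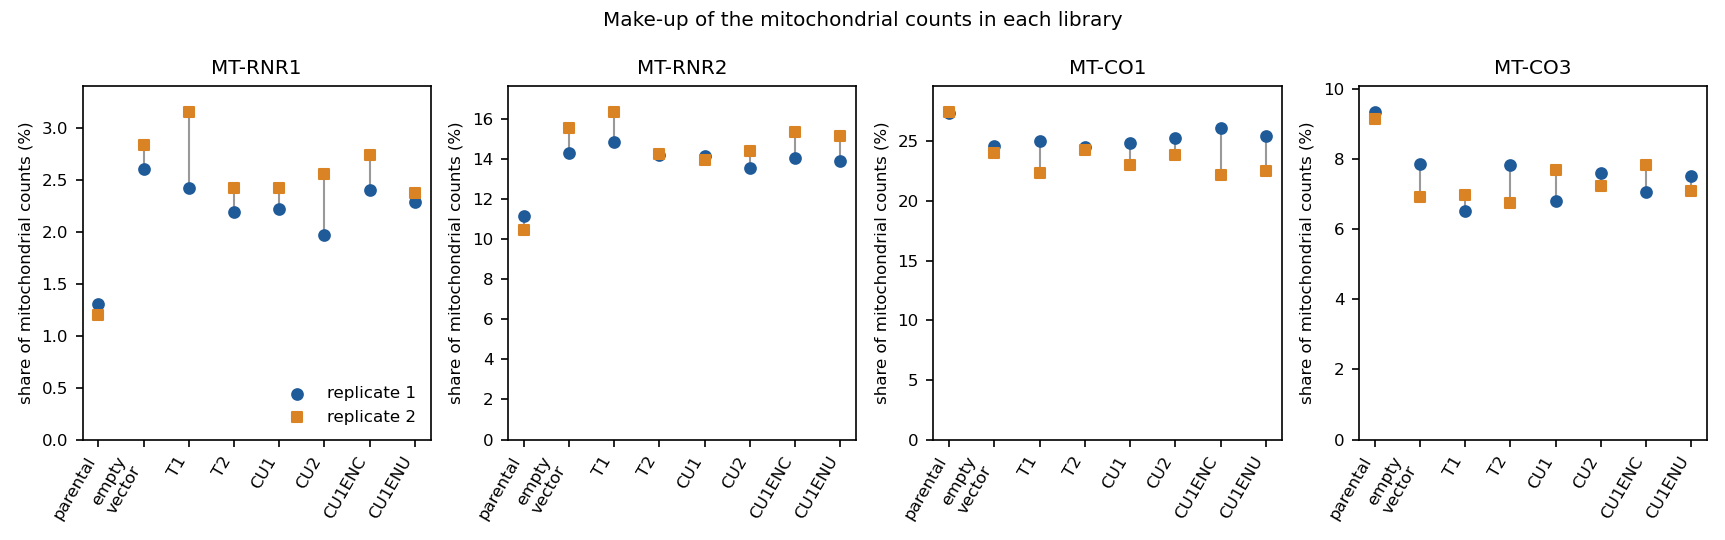
Share of all mitochondrial counts (y axes, percent, each from 0) taken by MT-RNR1, MT-RNR2, MT-CO1 and MT-CO3 in the 16 libraries, by group (x axis). Circles are replicate 1 and squares replicate 2. The 2 parental libraries lie below the 14 transfected ones for both rRNA genes and above them for MT-CO1 and MT-CO3.

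MT-RNR1, the small subunit rRNA (ENSG00000211459, MT:648-1601), and MT-TM, the methionine tRNA (ENSG00000210112), were the mitochondrial genes that rose with empty vector transfection. MT-RNR1 had 314 and 136 CPM in parental cells and 584 and 378 CPM with empty vector. MT-TM had 8 and 7 counts in parental cells and 41 and 27 with empty vector. Its parental counts lay below the filter's minimum of 10, so it passed the filter only through transfected libraries, where it was high. For both genes the empty vector libraries lay above both parental libraries, as for 2 of 27 members and 30.1% of all genes.

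By edgeR's quasi-likelihood test with Benjamini-Hochberg adjustment over 19316 genes, MT-RNR1 was higher by 1.10 ± 0.31 on the log2 scale (SE; adjusted p = 0.0375). MT-TM was higher by 2.22 ± 0.52 in the same edgeR fit (adjusted p = 0.0107). That makes 2 of 27 tested mitochondrial genes called, both upward and none downward, against 16% of all genes called in this comparison (9.41% upward and 6.6% downward). The MT-TM call gives no separate support, since the gene was tested because of groups in which it was high. The median log2 fold change was 0.10 over the 27 genes and 0.01 over all genes.

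Both calls depended on single libraries. MT-RNR1 passed in 2 of the 16 fits that left out 1 library, those without parental replicate 1 and without empty vector replicate 2, and its adjusted p reached 0.20 without empty vector replicate 1, where it was higher by 0.75. MT-TM passed in 13 of 16, and missed the threshold without either parental library (0.0699 and 0.0749) or without empty vector replicate 1 (0.0759). Leaving out parental replicate 1 gave 6 mitochondrial genes called upward, beside 4% of all genes in that fit, and leaving out parental replicate 2 gave 1 downward, MT-ATP8, beside 3.17% of all genes. MT-ATP8 differed by 0.64 (adjusted p = 0.048) without parental replicate 1 and by -0.64 (adjusted p = 0.0363) without parental replicate 2.

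The same 2 genes rose when the 7 transfected groups together were set against parental cells, a comparison that shares its parental libraries with the previous one. MT-RNR1 ranged from 325 to 584 CPM over the 14 transfected libraries, with a median of 386, above the 314 and 136 CPM of parental cells. MT-TM had 14 to 49 counts in transfected libraries, those through which it passed the filter. No transfected library reached down to either parental value for these 2 genes, although MT-RNR1 in T2 replicate 2 came close.

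The contrast gave a log2 difference of 0.85 ± 0.25 for MT-RNR1 (adjusted p = 0.0263) and 1.93 ± 0.44 for MT-TM (adjusted p = 0.00494) in edgeR's quasi-likelihood test. The count was 2 of 27, both upward, where 29.7% of all genes were called (15.4% upward). All transfected libraries lay above both parental ones for 2 of 27 members, against 16.8% of all genes. With the replicate number as a block in edgeR the leucine tRNA MT-TL1 passed as well, at 0.51 ± 0.17 (adjusted p = 0.0170, against 0.0902 without the block).

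MT-TL1 had 8.41 and 4.57 CPM in parental cells and 6.91 to 11.3 CPM in transfected ones, so its groups overlapped. MT-RNR2, its neighbour, had 2680 and 1190 CPM in parental cells and 1910 to 3200 CPM after transfection, a log2 difference of 0.32 ± 0.24 (adjusted p = 0.354). Among the 13 protein genes none passed. Their log2 differences ran from -0.44 for MT-CO3 (SE 0.27, adjusted p = 0.26) to 0.28 for MT-ND1 (SE 0.26, adjusted p = 0.453).

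Without parental replicate 2 MT-RNR1 was higher by 0.37 ± 0.17 and did not pass (adjusted p = 0.151), and without CU1ENC replicate 2 its adjusted p was 0.0503. MT-TM missed the threshold without parental replicate 1 (0.0605) or replicate 2 (0.0612). Leaving out parental replicate 1 gave 7 genes called upward, beside 6.36% of all genes in that fit. Leaving out parental replicate 2 gave 4 downward, MT-ATP8, MT-ATP6, MT-CO3 and MT-ND4L, beside 7.84% of all genes. MT-ND4L was higher by 0.70 (adjusted p = 0.0362) in the former and lower in the latter, at -0.56 (adjusted p = 0.0455).

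None of the 27 genes passed the test between any LINC01016 isoform and empty vector. By edgeR's quasi-likelihood test 0 of 27 passed in each of the 6 comparisons, in the isoform mean contrasted with empty vector and in the F-test between isoforms, with adjusted p-values of 1.0. DESeq2 also called 0 in each, and without the low-count filter edgeR called 1, MT-RNR1 lower in T2. At an unadjusted p under 0.05 there was 1 gene in CU1, MT-TP, and 0 in the other comparisons. Few genes of any kind passed: 0.0104% of those tested for T1, T2, CU1, CU1ENC, CU1ENU and the isoform mean, 0.00518% for CU2, and 0 between isoforms. The 6 comparisons share the empty vector libraries, and the direction of most values depended on which of those was kept. Without empty vector replicate 1 the isoform mean was below 0 for 1 of 27 genes (median 0.31), and without empty vector replicate 2 for 26 (median -0.43). These fits held no replicate term, so isoform libraries of both replicate numbers were set against an empty vector library of 1. The replicate difference described below thus enters these values and those given next for single isoforms.

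The mean of the 6 isoforms differed from empty vector by -0.28 ± 0.23 for MT-RNR1, by -0.34 ± 0.33 for MT-TM and by 0.18 ± 0.21 for MT-TL1 on the log2 scale. In CPM, MT-RNR1 had 584 and 378 with empty vector and 325 to 494 in the 12 isoform libraries, with a median of 386. MT-TM had 2.51 and 1.73 with empty vector and 0.886 to 3.07 in the isoform libraries. MT-TL1 had 9.57 and 6.91, then 7.71 to 11.3. The ranges overlapped for each.

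T2 had log2 differences below 0 for 26 of 27 genes and a median of -0.28, the largest such count of the 6 isoforms. Without empty vector replicate 1 only 3 of 27 were below 0 (median 0.17), and without replicate 2 there were 26 (median -0.58). Both fits set T2 libraries of both replicate numbers against 1 empty vector library, so the T2 and replicate differences are mixed in them. Its largest was MT-TM, with 23 and 14 counts against 41 and 27, a difference of -0.85 ± 0.46. MT-RNR1 differed by -0.50 ± 0.31 in T2, with 356 and 325 CPM. MT-TY, tyrosine, differed by -0.65 ± 0.50, with 3.95 and 1.64 CPM against 5.27 and 3.52. The T2 libraries, whose total share was 1.619 and 1.319%, held the lowest transfected share within each replicate. Empty vector held 2.279% in replicate 1 and 1.341% in replicate 2.

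In CU1, 25 of 27 differences were below 0 with a median of -0.18, but 7 of 27 without empty vector replicate 1 (median 0.26) and 27 without replicate 2 (median -0.48). MT-TP, the proline tRNA, had 20 and 16 counts in CU1 against 41 and 26 with empty vector, a difference of -0.90 ± 0.35 that did not pass after adjustment. MT-TP was named here because it had the lowest unadjusted p of the 27 genes in CU1. MT-TS1 differed by -0.53 ± 0.39 in CU1, with 6.95 and 6.45 CPM against 12.1 and 7.23, and MT-RNR1 by -0.37 ± 0.31, with 370 and 374 CPM.

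T1 had 20 of 27 differences below 0 with a median of -0.06, and its leading gene was MT-TW, tryptophan, at 0.87 ± 0.70 with 10 and 37 counts against 11 and 14. MT-TP at 0.27 ± 0.32, with 48 and 36 counts, and MT-TC at 0.41 ± 0.51, with 78 and 51 counts against 59 and 34, followed. The MT-TW value rested on T1 replicate 2.

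CU2 had 17 differences below 0 and a median of -0.02, led by MT-TM at -0.61 ± 0.45 with 22 counts in each library. MT-RNR1 differed by -0.31 ± 0.31 with 384 and 390 CPM, and MT-TL1 by 0.26 ± 0.27 with 9.02 and 10.8 CPM. CU1ENU had 23 differences below 0 and a median of -0.19 (3 below 0 without empty vector replicate 1, median 0.23, and 25 without replicate 2, median -0.49). It was led by the same 3 genes: MT-TM at -0.61 ± 0.45 (14 and 29 counts), MT-RNR1 at -0.38 ± 0.31 (388 and 352 CPM) and MT-TL1 at 0.23 ± 0.27 (10.2 and 9.15 CPM). The values for these 3 genes in CU2 and CU1ENU lay within 1 SE of each other.

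CU1ENC was centred near 0, with 11 of 27 differences below it and a median of 0.01. Its lowest p-values were those of MT-TL1 at 0.27 ± 0.27 (8.55 and 11.3 CPM), of MT-TQ at -0.48 ± 0.52 (57 and 35 counts against 90 and 42) and of MT-TN, asparagine, at -0.33 ± 0.41 (93 and 32 counts against 100 and 61). In MT-TQ and MT-TN the 2 CU1ENC libraries lay further apart than the group means did. No pair of isoforms was shown to differ in any mitochondrial gene.

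When replicate 2 was compared with replicate 1 across the 8 groups, 10 of 27 mitochondrial genes passed, and each was lower in replicate 2. They were the minus-strand genes MT-ND6, MT-TS1, MT-TY, MT-TA, MT-TQ, MT-TE and MT-TC and the plus-strand genes MT-CO1, MT-CO2 and MT-ND4. Over all genes 35.9% were called in this comparison and 17.9% were lower in replicate 2. The median log2 difference was -0.34 over the 27 genes and -0.01 over all genes. The labels say nothing of what the replicate number stands for.

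The 4 of lowest p were all minus-strand tRNA genes. MT-TS1 had 6.95 to 12.6 CPM in replicate 1, with a median of 10.6, and 5.25 to 8.98 CPM in replicate 2, with a median of 6.83. MT-TY had 3.67 to 7.0 CPM (median 4.93) and then 1.64 to 3.63 (median 3.08). Replicate 2 was the lower for both genes in 8 of 8 groups, as for 10.1% of all genes. The log2 differences were -0.55 ± 0.10 for MT-TS1 (adjusted p = 7.26e-05) and -0.72 ± 0.14 for MT-TY (adjusted p = 0.000102) in edgeR's quasi-likelihood test.

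MT-TA had 0.633 to 2.25 CPM in replicate 1 and 0.379 to 0.915 CPM in replicate 2, with medians of 1.51 and 0.495, and it differed by -1.31 ± 0.27 (adjusted p = 0.000198). It was lower in replicate 2 in 7 of 8 groups, all but CU1ENU, and had 39 counts at most in a library. MT-TQ had 3.46 to 5.52 CPM and then 1.1 to 3.89 CPM, a difference of -0.61 ± 0.17 (adjusted p = 0.00643). MT-TA was therefore the largest difference of the 10 and also the one on the fewest counts.

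MT-ND6, the minus-strand protein gene, had 162 to 267 CPM in replicate 1 and 99.1 to 158 CPM in replicate 2, a difference of -0.64 ± 0.16 (adjusted p = 0.0144). MT-CO1 had 3970 to 6560 CPM and then 3120 to 4000 CPM, a difference of -0.48 ± 0.10 (adjusted p = 0.00904). MT-CO2 had 2290 to 3320 CPM and then 1740 to 2290 CPM, a difference of -0.41 ± 0.10 (adjusted p = 0.0175). MT-ND6 and MT-CO1 were lower in replicate 2 in 8 of 8 groups, as for 10.1% of all genes.

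The remaining calls were MT-TE at -0.59 (adjusted p = 0.0132), MT-TC at -0.53 (adjusted p = 0.0411) and MT-ND4 at -0.41 (adjusted p = 0.0483). MT-TC and MT-ND4 passed in 4 of the 16 fits that left out 1 library. MT-TE passed in 14 of 16, all but those without a parental library, where its adjusted p reached 0.0593. The other 7 passed in 16 of 16. In the 7 transfected groups alone 9 genes were lower, beside 17.6% of all genes in that fit, and MT-TW was higher, at 0.78 on the log2 scale, beside 17.5%.

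By strand, 7 of the 9 tested minus-strand genes were called and 3 of the 18 on the plus strand, with median log2 differences of -0.59 and -0.31. No member was called higher, and 24 of 27 values were below 0, the exceptions being the plus-strand tRNA genes MT-TM, MT-TW and MT-TT. In normalised counts, 7 of 27 genes were lower in replicate 2 in 8 of 8 groups, against 10.1% of all genes, and 15 of 27 in at least 7 groups, against 20.7%. Neither rRNA gene passed, MT-RNR1 with -0.22 ± 0.16 and MT-RNR2 with -0.32 ± 0.14.

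**Figure D4:**
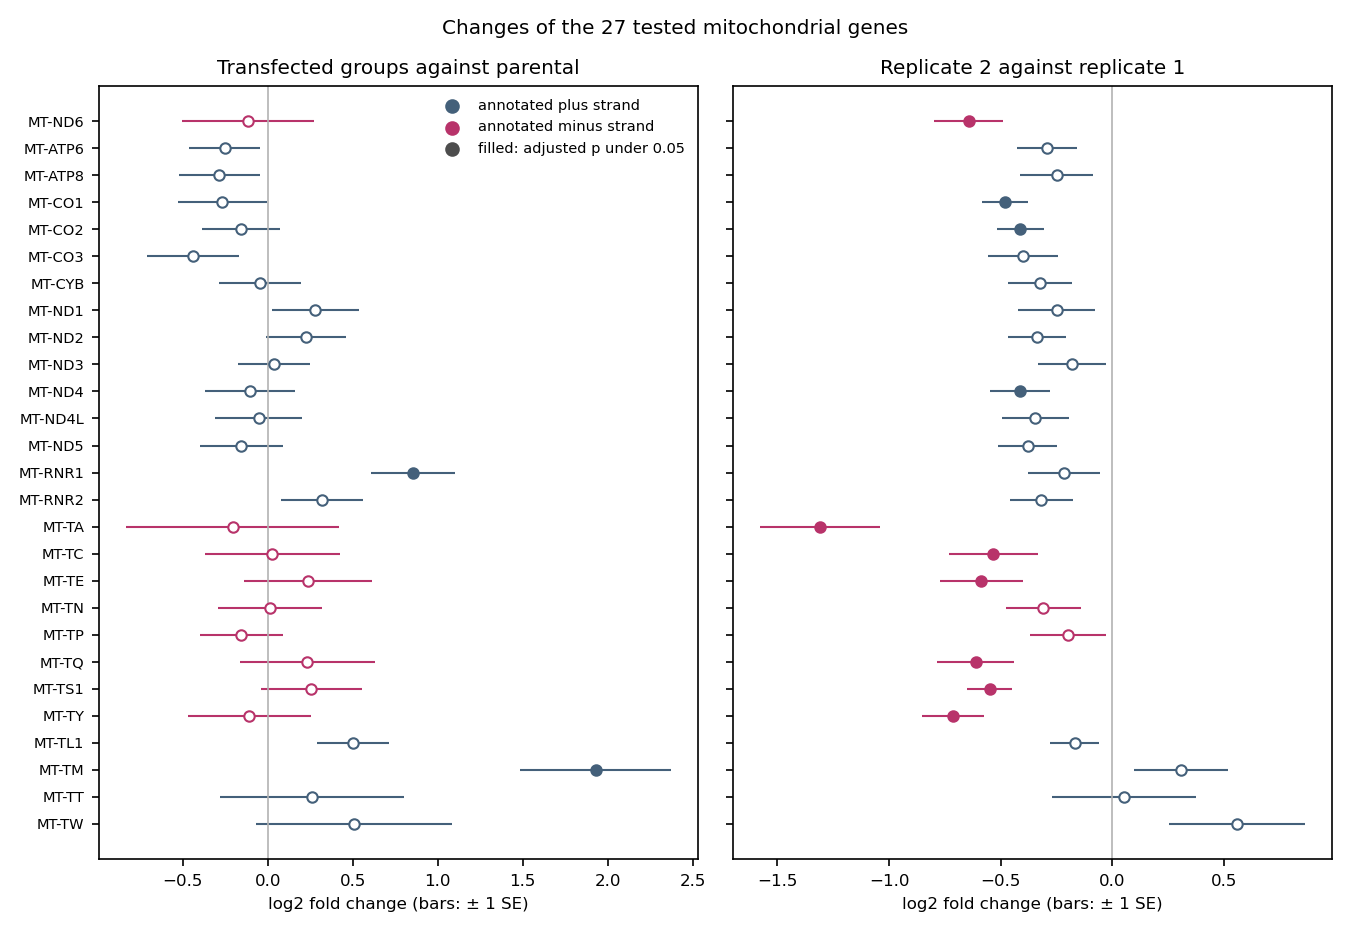
Log2 fold changes with ± 1 SE (x axes) of the 27 tested genes for the transfected groups against parental and for replicate 2 against replicate 1, by edgeR. Filled points have an adjusted p under 0.05, and colours give the annotated strand. MT-RNR1 and MT-TM are the filled points on the left, and 10 genes, 7 of them on the minus strand, are filled on the right.

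The replicate difference can also be given as a strand balance inside the mitochondrial counts, without reference to any nuclear gene. The minus-strand sum includes the genes already called lower above, so it gives them no separate support. Such a share has no counterpart over all genes. The 9 minus-strand genes took 1.135 to 1.366% of mitochondrial counts in the 7 transfected replicate 1 libraries and 0.9863 to 1.083% in the 7 transfected replicate 2 libraries, which did not overlap. Parental cells showed 1.195 and 1.052%, inside those same ranges. The share was lower in replicate 2 in 8 of 8 groups, by 0.196 percentage points on average (SD 0.107).

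MT-ND6 lies directly beside MT-ND5 on the opposite strand. MT-ND6 counts per MT-ND5 count fell between 0.1827 and 0.2306 in transfected replicate 1 libraries and between 0.1635 and 0.1834 in replicate 2. The ratio was lower in replicate 2 in 8 of 8 groups, and the same held for MT-ND6 per MT-CYB, at 0.2339 to 0.2845 and 0.191 to 0.2099 in transfected libraries. Since MT-ND6 supplies most minus-strand counts, these measures are not independent of each other.

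**Figure D5:**
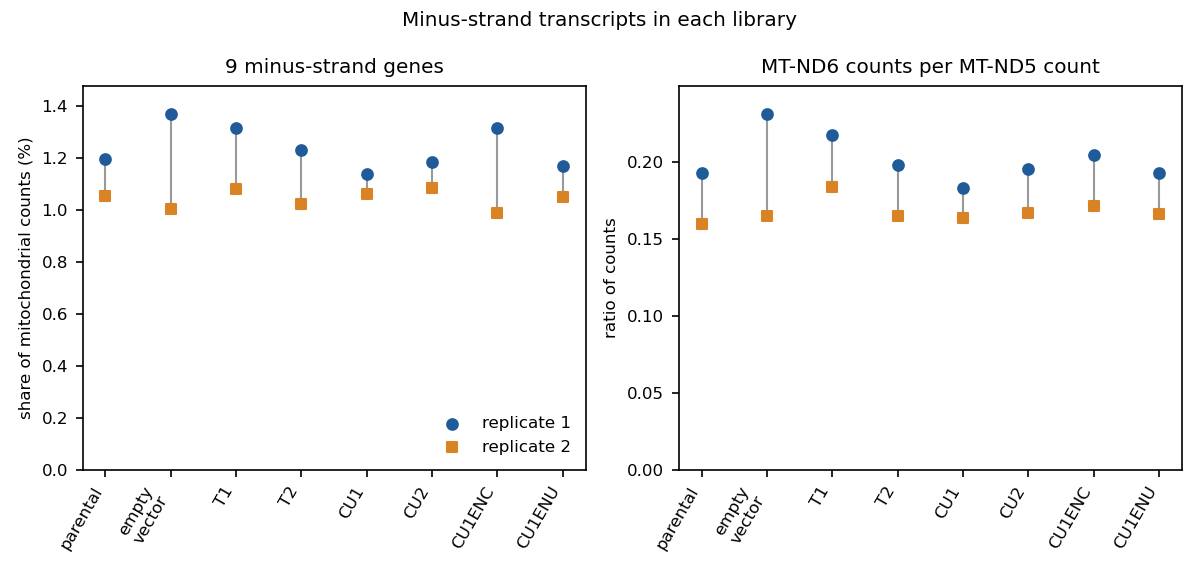
Share of mitochondrial counts on the 9 minus-strand genes (left, percent) and MT-ND6 counts per MT-ND5 count (right, ratio) in the 16 libraries, by group. Circles are replicate 1 and squares replicate 2. Within each of the 8 groups the square lies below the circle in both plots.

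The parental pair showed the widest gap between replicates for most members. Its median log2 difference over the 27 genes was -1.10, against -0.24 in the transfected groups. A test of that difference, chosen after seeing the data, called 0 of 27 genes in edgeR (lowest adjusted p = 0.274), with 15 at an unadjusted p under 0.05. Over all genes it called 0.0621%, and 6.91% had an unadjusted p under 0.05. That test pooled empty vector with the isoform groups, whose gaps were unlike. For the share of all mitochondrial genes, the replicate difference was -1.27 percentage points in parental cells and -0.938 with empty vector. In the isoform groups it ran from -0.438 (CU2) to -0.093 (CU1ENC). A wide gap was thus not particular to the parental pair.

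Nuclear genes that act on mitochondrial transcripts were counted from fixed lists. The shares of all genes called beside them were 9.41% up and 6.6% down with empty vector, 15.4% up and 14.3% down in all transfected groups, and 18% up and 17.9% down between replicates. With the replicate block they were 18.4% up and 15.9% down with empty vector and 23.1% up and 22.5% down in all transfected groups. Leaving out a parental library gave 7.15 or 7.62% called with empty vector and 12.4 or 16% in all transfected groups, and leaving out an empty vector library gave 7.71 or 6.76% with empty vector, for replicates 1 and 2 in that order. Of 46 tested genes of mitochondrial RNA processing and turnover, 12 rose and 1 fell with empty vector, and 20 rose and 2 fell in all transfected groups. Among them were TRIT1, a tRNA isopentenyl transferase, higher by 0.94 ± 0.12 with empty vector (adjusted p = 0.00028, edgeR), PUS1, a pseudouridine synthase, by 0.97 ± 0.16 (adjusted p = 0.00147), and SUPV3L1, an RNA helicase, by 0.91 ± 0.17 (adjusted p = 0.00317). NSUN3, which modifies the methionine tRNA MT-TM, fell by 0.45 on the log2 scale (SE 0.12, adjusted p = 0.022). With the replicate block the counts were 25 up and 2 down with empty vector, and in all transfected groups 29 up and 2 down. Without parental replicate 1 they were 4 up and 1 down with empty vector and 6 up and 1 down in all transfected groups, and without parental replicate 2 they were 9 up and 1 down, then 15 up and 1 down. Leaving out an empty vector library gave 6 and 5 genes up with empty vector, for replicates 1 and 2.

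Of 26 genes of mitochondrial DNA transcription and replication, 7 rose and 0 fell with empty vector, and 9 rose and 0 fell in all transfected groups. They included POLRMT, the mitochondrial RNA polymerase, at 0.43 ± 0.10 with empty vector (adjusted p = 0.00941, edgeR), and PPRC1, a coactivator, at 0.75 ± 0.12 (adjusted p = 0.000946). Leaving out any of the 4 libraries of that comparison left 2 or 3 upward, and in all transfected groups 3 or 5 passed without parental replicate 1 or 2. The median log2 difference of the list with empty vector was 0.20, against 0.01 for all genes.

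Of 74 nuclear-encoded partner subunits of complexes I, III, IV and V, none rose and 7 fell with empty vector, which was 9.46% of the list beside 6.6% of all genes. In all transfected groups none rose and 13 fell, 17.6% beside 14.3%. ATP5PD of the ATP synthase fell by 0.45 (SE 0.11, adjusted p = 0.013, edgeR) with empty vector. The replicate block gave 1 up and 20 down with empty vector and 2 up and 23 down in all transfected groups. Without parental replicate 2 none passed in either comparison, without parental replicate 1 the counts were 4 and 7, and without empty vector replicate 1 or 2 they were 1 and 0. Leaving out either T2 library gave 4. The median was -0.10, against 0.01 for all genes.

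Of 22 mitochondrial translation factors, 1 rose and 1 fell with empty vector and 4 rose and 1 fell in all transfected groups. OXA1L, which inserts mitochondrial proteins into the inner membrane, was the one that fell, by 0.42 (SE 0.11, adjusted p = 0.0154, edgeR) with empty vector. The block gave 4 up and 1 down, then 8 up and 2 down. Leaving out a parental or empty vector library left 0 or 1 in each direction with empty vector. In all transfected groups 1 or 2 rose and 1 fell without parental replicate 1 or 2.

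In replicate 2 against replicate 1 each list had more genes up than down, beside 18% up and 17.9% down of all genes. Partner subunits had 24 up and 3 down of 74, processing genes 17 up and 7 down of 46, transcription and replication genes 8 up and 4 down of 26, and translation factors 7 up and 1 down of 22. Their median log2 differences were 0.03 to 0.09, against -0.01 for all genes. The size of these differences was small: COX6B1 of complex IV was higher by 0.27 ± 0.03 (adjusted p = 1.11e-07, edgeR) and the tRNA methylase NSUN2 by 0.37 ± 0.03 (adjusted p = 6.24e-12). NDUFA13 of complex I went down, at -0.84 ± 0.12 (adjusted p = 1.33e-06). In DESeq2 translation factors had 3 up and 0 down of 22, beside 16% up and 13.4% down of all genes, so their upward excess depended on the method. The counts of partner subunits and translation factors also fell in some fits that left out 1 library.

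Copies of mitochondrial genes in the nuclear genome can take up mitochondrial reads. Of 404 such genes in the table by symbol, 53 had a count and 4 were tested, and the 3 highest held 98.9% of all their counts. MTATP6P1 on chromosome 1 (1:633696-634376, GRCh38) had 1074 to 2976 counts, or 8.52 to 13.6 per 100 counts of MT-ATP6. MTND2P28, close by at 1:629640-630683, had 3.81 to 4.95 counts per 100 of MT-ND2. As shares of library counts, both copies were lower in replicate 2 in 8 of 8 groups. In normalised counts, MT-ATP6 was lower in 7 of 8 groups, and 10.1% of all genes were lower in 8 of 8. Since copies can take up such reads, levels of MT-ATP6, MT-ND2 and these copies are uncertain. The recorded counting command holds no option that counts fragments mapping to several places. Such fragments can be missing from a mitochondrial gene and its copy alike, and these ratios do not bound that loss. MTCO1P12 and MTND4P12 had at most 0.253 and 0.0481 counts per 100 of MT-CO1 and MT-ND4, which does not bound such a loss either.

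Nuclear RNAs that lack a poly(A) tail were mostly few in the counts. Of 29 such genes, 22 had a mean below 1 count, RN7SK and RMRP had none, and RN7SL1 had 2093 to 5006. Of these, 3 were tested and 0 passed with empty vector, in all transfected groups or between replicates (DESeq2 called 1 lower in the first 2 of these). The part of RNA selection in the low tRNA counts and in the rRNA levels was not tested.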

How the data were processed

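RNA from HEK293 cells was sequenced in 16 libraries, 8 groups of 2. The authors deposited whole-number counts per gene, made with featureCounts 2.0.1 (paired ends, strand option 2, exons summed by gene) on the Ensembl 101 annotation, per the file headers. HISAT2, DESeq2 and GRCh38.p13 come from the submitters' processing notes, with no versions given. Groups and replicate numbers were read from the sample titles. edgeR 4.0.16 in R 4.3.3 was run on the deposited counts: filterByExpr by group (minimum count 10), TMM scaling, 8 group means, robust quasi-likelihood F-tests, and Benjamini-Hochberg adjustment over 19316 genes at 0.05. The replicate comparison added the replicate number to the model. CPM values use TMM-scaled library sizes. The procedure was tested on simulated data.

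Replicate numbers paired the libraries: deviations from group means correlated above 0.1 in 28 of 28 pairs of groups (0.216 to 0.536, median 0.31), so the fit with the replicate block is given where it changed a call. Replicates differed beyond sampling noise and each was kept. Alternatives were DESeq2 1.42.0, median-of-ratios scaling, scaling over nuclear genes, no filter, the replicate block and leaving out each library. Planned permutation tests of summed mitochondrial shares were left out, and the shares stand as values. Named genes were all protein and rRNA genes, the 4 highest and 2 lowest tRNA genes by mean count, each called tRNA gene, and the lowest-p genes of each comparison and list. Members and lists were chosen with earlier results of these data known. Counting errors do not cover differences between cultures. The gene lists were those of mitochondrial transcription and replication, RNA processing, translation factors, partner subunits, RNAs without a poly(A) tail, nuclear copies and cell type markers. Summed marker levels not given elsewhere were 9.0 to 18.5 CPM for kidney tubule (UMOD at 0), 43.9 to 58.8 for fibroblast, 0.183 to 0.972 for keratinocyte and 0.732 to 4.67 for tissues rich in mitochondria.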

Additional observations from a re-analysis of the deposited data

How the results depend on the processing

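With no filter on low counts, 5 mitochondrial genes were called for empty vector against parental (4 up, 1 down), 9 for transfected against parental (5 up, 4 down) and 1 for T2 against empty vector (MT-RNR1, lower), beside 8.85, 15.4 and 0.0916% of all 38201 genes. The replicate block (for the group comparisons), DESeq2 and both other scalings gave counts within 1.5 times those of the report (2, 2, 0 and 10 genes for empty vector, transfected, T2 and replicates), as did the 7 transfected groups alone for the replicate comparison. Single calls between replicates did change: MT-TC did not pass in DESeq2 (adjusted p = 0.0508). With no filter MT-CO2 and MT-ND4 did not pass between replicates in edgeR (adjusted p = 0.0506 and 0.126). The block added MT-TL1 in transfected against parental (adjusted p = 0.0170, edgeR) and changed no other call of a mitochondrial gene. Its effect on the nuclear lists stands with them in the report. Leaving out 1 library gave 0 to 6 genes for empty vector against parental, 1 to 7 for transfected against parental, 8 to 10 for the replicate comparison and 0 for each isoform comparison. MT-ATP8 with empty vector was 0.636 without parental replicate 1 and -0.642 without parental replicate 2, and MT-ND4L in transfected against parental was 0.699 and -0.561. The cause was not tested.

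In percentage points of library counts, the difference of empty vector from parental with 1 library left out ran from -0.609 to 0.663 for all mitochondrial genes (0.0267 with all libraries), -0.623 to 0.479 for protein, 0.0138 to 0.182 for rRNA and -0.000109 to 0.00197 for tRNA genes. For transfected from parental it ran from -0.757 to 0.515 (-0.121 with all), -0.737 to 0.365 for protein and -0.0194 to 0.148 for rRNA genes. For the isoform mean from empty vector it ran from -0.642 to 0.296 (-0.173 with all), -0.532 to 0.265, -0.108 to 0.0303 and -0.00135 to 0.000733 in the same order of classes. Replicate 2 minus replicate 1 stayed between -0.538 and -0.37. The extremes came from leaving out a parental or empty vector library, which also leaves that group with 1 replicate number. With 2 libraries a group these share differences have no direction that a single library does not decide. The exceptions are those of the replicate comparison and of the rRNA genes with empty vector. Leaving LINC01016 out, a nuclear library size or leaving out the rRNA genes moved each by less than 1 SD. The planned permutation tests of the shares were not run. The 10 tRNA genes below the filter had too few counts to be tested.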
